A study of Homo sapiens with 20 samples.

Results

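Cohesin sites of RPE-1 cells were divided by whether the peak lists of its subunits met at the same place. RPE-1 is an hTERT-immortalised line of retinal pigmented epithelium. Overlapping peaks of the SA1 and SA2 lists were merged into 13088 SA sites, of which 10107 shared at least 1 bp with a RAD21 peak and 2981 did not. The RAD21 list held 16078 peaks, of which 10089 overlapped an SA site and 5989 did not. Below, with and without RAD21 or SA refer to called peaks only, not to the presence of the protein. The 3 RPE-1 lists held 36567 of the 191415 peaks in the 6 lists of the series on the CHM13 v1.0 assembly.

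ChIP-seq, which sequences the DNA recovered with an antibody, was performed for RAD21, SA1 and SA2 with 2 libraries each in RPE-1 cells and 3 each in CHM13 cells, and total chromatin served as input (20 libraries in all). CHM13 is an hTERT-immortalised line from a complete hydatidiform mole. The labels name no treatment and no change to a cohesin gene in either line. SA1 and SA2 were recovered with the same antibodies in both lines, RAD21 with a different antibody in each, and chromatin was sheared with a different instrument in each. A list pools its replicates and keeps loci seen in at least 2 of them, and it carries no height, fold or p-value. Spread between replicates is therefore not in the lists, read depth was not used here, and the intervals below (95%, Wilson for a share and Newcombe for a difference of shares) cover counting error only. Sites on a chromosome are not independent, so the number of chromosomes, of 23, on which a difference had the same direction is given as well.

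Cohesin is a ring formed by SMC1A, SMC3 and the kleisin RAD21, to which 1 SA subunit, SA1 (STAG1) or SA2 (STAG2), is attached through RAD21. The ring holds sister chromatids together after replication and extrudes chromatin loops in interphase. Much of it is found where CTCF, a zinc-finger protein with a GC-rich recognition sequence, is bound, and some of it at active gene starts. Because SA proteins join the ring through RAD21, an SA site would by this textbook picture carry RAD21 as well.

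A few sequences illustrate the sites. The first set comes from SA sites with RAD21 that lay in both SA lists and in all 3 CHM13-cell lists, the 4 widest of those more than 1 kb from any annotated exon with exactly 1 match to the CTCF core motif within 300 bp around the centre. Each run holds 60 bases of hg38 on the strand of the motif, and capitals mark the motif.
chr9:21789582-21789641, minus strand: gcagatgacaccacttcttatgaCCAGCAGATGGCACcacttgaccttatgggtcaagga
chr11:10735947-10736006, minus strand: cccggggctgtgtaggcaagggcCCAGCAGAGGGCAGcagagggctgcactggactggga
chr4:38179808-38179867, plus strand: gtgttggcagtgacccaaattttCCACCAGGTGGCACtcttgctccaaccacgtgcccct
chr9:131762606-131762665, plus strand: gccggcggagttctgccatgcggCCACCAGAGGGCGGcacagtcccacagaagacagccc

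The second set comes from the 4 widest SA sites without RAD21 in both SA lists, with the same distance from exons. Each run holds the central 100 bases of the site on hg38, and capitals would mark a CTCF core motif with at most 1 mismatch, of which there was none in these runs.
chr4:97721012-97721111, plus strand: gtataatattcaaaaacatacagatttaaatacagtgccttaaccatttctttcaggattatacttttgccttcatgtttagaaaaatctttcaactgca
chr7:121994904-121995003, plus strand: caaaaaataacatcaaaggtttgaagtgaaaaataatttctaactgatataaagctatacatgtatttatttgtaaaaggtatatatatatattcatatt
chr5:59813973-59814072, plus strand: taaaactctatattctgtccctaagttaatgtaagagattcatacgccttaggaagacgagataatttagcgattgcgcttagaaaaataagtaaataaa
chr2:197113513-197113612, plus strand: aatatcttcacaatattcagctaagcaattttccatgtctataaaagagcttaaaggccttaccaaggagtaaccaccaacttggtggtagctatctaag

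GC content was 50.0 to 70.0% in the 4 runs with RAD21 and 19.0 to 37.0% in the 4 runs without it. The runs with RAD21 were placed on their motif and those without it on the site centre, so they illustrate the sites and are not a comparison.

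Most SA sites carried RAD21, and the share was highest where both SA proteins had been called. RAD21 was present at 77.2% of SA sites (interval 76.5 to 77.9%). Of the 7399 sites in both SA lists, 85.6% had RAD21 (84.8 to 86.4%), compared with 64.1% of the 3511 sites in the SA1 list only (62.5 to 65.7%) and 70.0% of the 2178 in the SA2 list only (68.0 to 71.9%). Sites in both SA lists made up 62.6% of those with RAD21 and 35.8% of those without, a difference of 26.9 percentage points (24.9 to 28.8) with the same direction on 23 of 23 chromosomes. Without RAD21 there remained 1067 sites in both lists, 1260 in the SA1 list only and 654 in the SA2 list only. The 1067 sites were therefore called with 2 antibodies, each in at least 2 libraries.

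A called RAD21 peak lay either at the SA site or, in most cases, many kilobases away. These distances were not compared with those from random places, and RAD21 below the calling limit would not be seen. In sites with RAD21 the centre lay a median of 28.0 bp from the centre of the nearest RAD21 peak, and in 94.1% of them it lay within 100 bp. From SA sites without RAD21 the nearest RAD21 peak was a median of 73611 bp away (quartiles 26690 and 156458 bp). Only 9 of the 2981 sites had a RAD21 peak within 500 bp and 34 within 1 kb. The farthest site, at 67729596 to 67730757 on chromosome 9 of CHM13 v1.0, was 9343011 bp from a RAD21 peak. This site was in no CHM13-cell list, and whether it lies in repeated DNA was not examined. RAD21 peaks without SA were likewise a median of 53747 bp from an SA site, and 29 of 5989 had one within 500 bp. When a RAD21 peak within 500 bp was enough, 77.3% of SA sites had one.

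Sites called with 1 kind of subunit were narrower. The median width was 467 bp in SA sites with RAD21 and 407 bp in those without, and sites at least 500 bp wide made up 35.3% and 14.6%, a difference of 20.7 percentage points (19.1 to 22.2; 23 of 23 chromosomes). This difference was 10.6 points on the hg38 lists (9.63 to 11.6), 13.5 with SA peaks taken one by one (12.4 to 14.6) and 6.37 with the SA2 list alone (4.81 to 7.78). A merged site can be wider than its peaks, yet the median of SA1 peaks taken one by one was 460 bp with and 398 bp without RAD21, and that of SA2 peaks 412 and 387 bp. RAD21 peaks with SA had a median of 539 bp and those without SA 453 bp, and 65.4% and 33.0% were at least 500 bp wide, a difference of 32.4 points (30.9 to 33.9; 23 of 23 chromosomes). A wider site also has more room to overlap another. When a peak within 500 bp counted as present, the differences were 20.7 points for SA sites and 32.5 points for RAD21 peaks. The part of width itself in the overlap was not tested further.

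**Figure D1:**
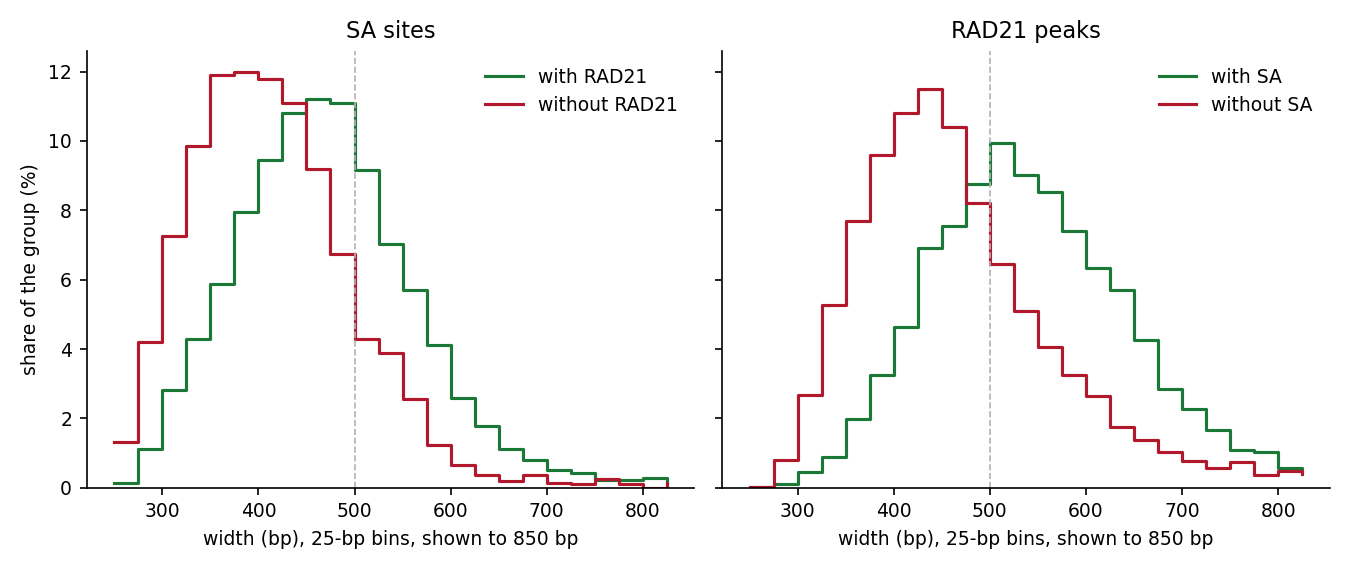
Width of RPE-1 SA sites (left) and RAD21 peaks (right) on the CHM13 v1.0 assembly, in bins of 25 bp, as the share of each group. Green marks sites that overlapped a peak of the other kind of subunit, and red marks sites that did not. The dashed line is at 500 bp. Red curves sit to the left of green ones, with medians of 407 against 467 bp for SA sites and 453 against 539 bp for RAD21 peaks.

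The share with RAD21 rose with width. It was 43.8% in the 292 SA sites under 300 bp (38.3 to 49.6%), 63.4% from 300 to below 400 bp, 78.8% from 400 to below 500 bp, 88.0% from 500 to below 600 bp and 93.0% in the 683 sites from 600 to below 700 bp (90.8 to 94.7%). At 700 bp and more it was 91.2% (87.6 to 93.8%). Sites in 1 and in both SA lists also differed at like width: from 400 to below 500 bp the share was 70.4% in 1 list (68.4 to 72.4%) and 83.7% in both (82.4 to 84.9%). In RAD21 peaks the share with SA rose from 30.6% at 300 to below 400 bp to 82.6% at 600 to below 700 bp and was 72.2% in the 1588 peaks of 700 bp and more (70.0 to 74.4%).

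Of the 5 widest SA sites without RAD21 on CHM13 v1.0, 2 lay close together on chromosome 22, at 12341533 to 12343388 (1856 bp) and 12344458 to 12346405 (1948 bp), and others at 67729596 to 67730757 on chromosome 9 (1162 bp), 149396373 to 149397516 on chromosome 3 (1144 bp) and 9615271 to 9616289 on chromosome 14 (1019 bp). Of these, the site on chromosome 3 was in all 3 CHM13-cell lists and the other 4 were in none. All of the 5 widest SA sites with RAD21 (1584 to 2761 bp) were in all 3. The 5 widest RAD21 peaks without SA (2244 to 3498 bp) were also in all 3. Positions on hg38 were not matched to those of CHM13 v1.0. The widest SA sites without RAD21 on hg38 were at 49601535 to 49602913 on chromosome 5 (1379 bp) and 34582806 to 34583796 on chromosome 16 (991 bp). Of the 5 widest on hg38, 3 were in all 3 CHM13 lists, 1 in those of SA1 and SA2, and 1 in none. Whether any of these places lies in repeated or centromeric DNA, where short reads are hard to place, was not examined on either build.

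Most places with SA but no RAD21 peak in RPE-1 cells had a RAD21 peak in CHM13 cells. Of the 2981 SA sites without RAD21, 94.3% overlapped a RAD21 peak of CHM13 cells, 93.2% an SA1 peak and 92.7% an SA2 peak, and 91.7% overlapped all 3. At SA sites with RAD21 the shares were 98.3%, 97.5%, 97.6% and 97.0%. The difference was 4.0 percentage points for the CHM13 RAD21 list (3.18 to 4.93; higher with RAD21 on 21 chromosomes, lower on 1, tied on 1). For presence in any CHM13 list it was 3.66 points (2.87 to 4.55), from 98.4% and 94.8%. A pattern of SA in CHM13 cells with no RAD21 there was rare: 15 of the 2981 sites (0.503%) showed it, against 16 of the 10107 sites with RAD21 (0.158%). The CHM13 lists are longer than those of RPE-1 cells (74116 RAD21 peaks against 16078).

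Presence in the CHM13 lists also went with the number of SA lists. Of the 1067 without RAD21 in both lists, 97.8% were in a CHM13 list, compared with 98.9% of the 6332 with RAD21. The corresponding shares were 93.7% and 97.3% for SA1 only and 92.0% and 98.2% for SA2 only. In all, 156 SA sites without RAD21 (5.23%) were in no CHM13 list. Their median width was 396 bp, 24 of them were in both SA lists, and chromosomes 3 (17 sites), 4 (16) and 6 (13) held the most. These chromosomes held 248, 286 and 233 of all 2981 SA sites without RAD21. They also held the most, 15 each, of the 159 SA sites with RAD21 that were in no CHM13 list.

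In RAD21 peaks that had no SA, the lists of CHM13 cells differed. Of them, 94.9% overlapped a RAD21 peak of CHM13 cells, 82.0% an SA1 peak and 82.5% an SA2 peak, and 76.0% were in all 3 lists. The CHM13 lists of SA1 (36986 peaks) and SA2 (43746) are shorter than that of RAD21 (74116). Shares in different lists are therefore not directly comparable. RAD21 peaks with SA were in the same lists in 98.3%, 97.5%, 97.6% and 97.0%. The difference was 15.5 points for the CHM13 SA1 list (14.5 to 16.6), 15.2 points for SA2 (14.2 to 16.2) and 3.39 points for RAD21 (2.79 to 4.03), each in the same direction on 23 of 23 chromosomes. For presence in any CHM13 list it was 3.40 points (2.82 to 4.02).

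**Figure D2:**
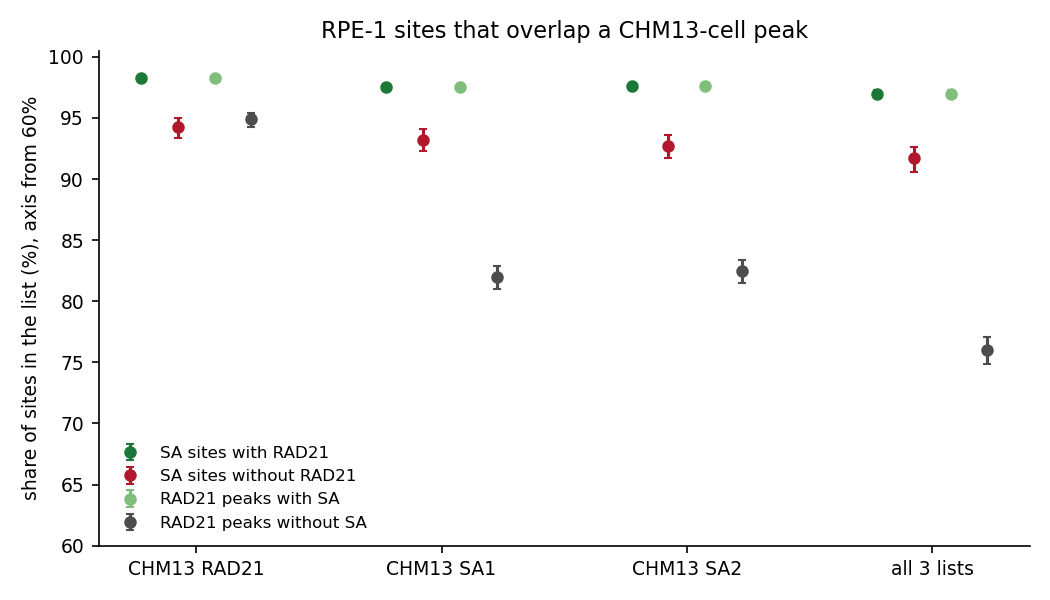
Share of each group of RPE-1 sites that overlapped a peak of CHM13 cells, by CHM13 list, with 95% Wilson intervals (the vertical axis starts at 60%). SA sites without RAD21 (red) were at 92.7 to 94.3% in the single lists. RAD21 peaks without SA (grey) were at 94.9% for RAD21 and at 82.0 and 82.5% for the shorter SA1 and SA2 lists.

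The groups also differed in the DNA around them. Its GC content was read from the hg38 lists, on chromosomes 1 to 22 and X, where 11723 SA sites divided into 9201 with and 2522 without RAD21. The SA2 list is shorter on hg38 (6416 peaks, against 9579 on CHM13 v1.0), and the share with RAD21 was 78.5% (77.7 to 79.2%). In the central 300 bp, median GC content was 36.0% without RAD21 (quartiles 33.3 and 39.0%) and 47.3% with it (42.0 and 55.0%). Over the 10 kb around the centre it was 38.3% (36.0 and 40.8%) and 44.0% (40.2 and 48.9%). RAD21 peaks without SA lay on the other side, with 53.7% in the central 300 bp and 46.8% over 10 kb, against 47.7% and 44.0% for RAD21 peaks with SA.

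When SA sites were put in 5 classes of equal size by the GC content of the 10 kb around them, a division chosen after the data were seen, the share with RAD21 rose at every step. It was 50.2% in the lowest class (48.2 to 52.2%; 1172 of 2334 sites), then 67.7%, 82.9% and 93.0%, and 98.6% in the highest (98.0 to 99.0%; 2313 of 2347). Of the 2522 sites without RAD21, the lowest class held 1162 and the highest 34. The order held in each kind of site. Sites in both SA lists went from 70.2% to 99.6%, SA1-only sites from 40.6% to 98.3%, and SA2-only sites from 26.2% (19.2 to 34.7%, 122 sites) to 95.5%. In the lowest class, SA2-only sites thus had RAD21 less often than SA1-only sites (38.1 to 43.2%), and in the highest class the intervals met (92.9 to 97.2% and 96.9 to 99.0%). The share of RAD21 peaks with SA went the other way, from 78.2% in the lowest class (76.0 to 80.2%) to 51.0% in the highest (49.5 to 52.4%).

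The SA sites of CHM13 cells gave no such range. With the same class limits, their own SA sites had a CHM13 RAD21 peak in 93.3%, 88.5%, 97.1%, 97.2% and 97.0% of cases from the lowest to the highest class. The CHM13 RAD21 list is much longer on hg38 (73881 peaks, against 14998 in RPE-1 cells). Shares this high leave little room for a rise, so the 2 lines are not compared at like list length. The lists of RPE-1 cells were then compared on a set that RPE-1 cells had no part in choosing, the 31793 RAD21 peaks of CHM13 cells that also overlapped an SA1 and an SA2 peak of those cells. Of these, 42.1% were in the RPE-1 RAD21 list, 32.4% in the SA1 list and 19.6% in the SA2 list. From the lowest to the highest GC class the share found in the RAD21 list went from 17.2% (16.4 to 18.1%) to 74.3% (73.1 to 75.5%). That is a rise of 57.1 percentage points (55.7 to 58.5). In the SA1 list the share was 26.2% in the lowest and 36.2% in the highest class, a rise of 9.98 points (8.37 to 11.6), and in the SA2 list 11.3% and 31.6%, a rise of 20.3 points (18.9 to 21.7). In the lowest class the RPE-1 SA1 list thus held more of these places than the RAD21 list, and in the highest class fewer. The libraries' own GC content and depth were not analysed here, and the 2 cell lines had different RAD21 antibodies, so the part that these had in the split was not tested.

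**Figure D3:**
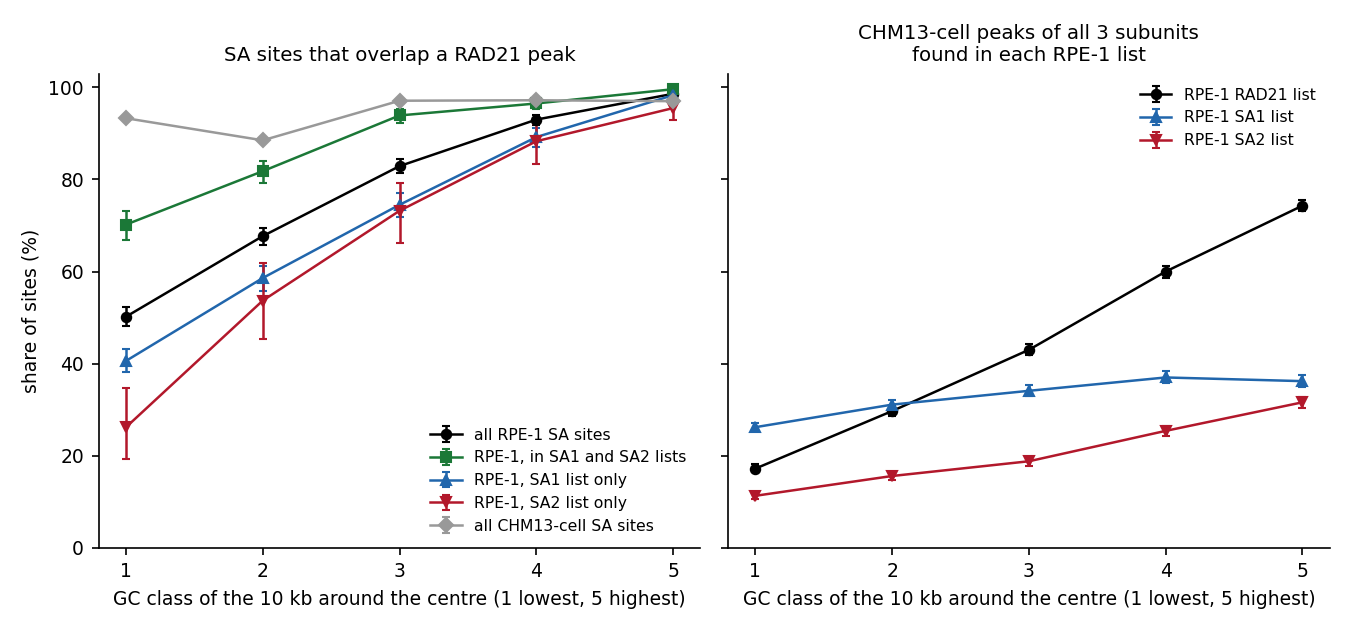
Left, share of SA sites that overlapped a RAD21 peak of the same cells, by GC class of the 10 kb around the site on hg38 (5 classes with equal numbers of RPE-1 SA sites), with 95% Wilson intervals. Right, share of the 31793 CHM13-cell peaks of all 3 subunits found in each RPE-1 list. RPE-1 SA sites rose from 50.2% to 98.6%, and CHM13-cell SA sites ranged from 88.5% to 97.2%.

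Chromosomes mostly followed the same order. On CHM13 v1.0 the share of SA sites with RAD21 was lowest on chromosomes 4 (64.0%, interval 60.6 to 67.2%), 13 (68.7%) and X (69.6%) and highest on chromosomes 19 (95.5%, 92.5 to 97.3%), 16 (91.1%) and 20 (91.0%). The intervals of the lowest 3 overlapped each other, as did those of the highest 3. Chromosome 4 alone held 286 of the sites without RAD21, and chromosome 19 held 14. On hg38, the share was related across the 23 chromosomes to the median GC content around their SA sites (Pearson's r = 0.92, Spearman's rho = 0.92; r = 0.92 without chromosomes 19 and 22) and to the number of protein-coding gene starts per Mb (r = 0.72, rho = 0.77; r = 0.80 without chromosomes 17 and 19). Chromosome X departed from the GC order, with 69.5% at a median GC content of 42.1%. Chromosome 18, by comparison, had 77.8% at 41.8%. These are descriptions over chromosomes of the same libraries, and gene density and GC content are themselves related.

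**Figure D4:**
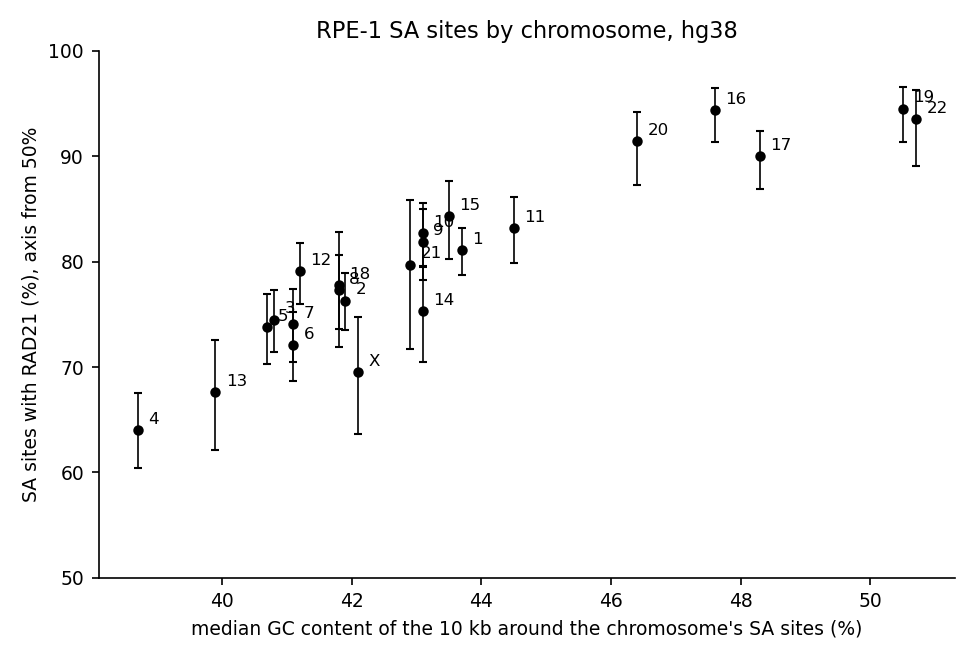
Share of RPE-1 SA sites with RAD21 on each chromosome of hg38 (vertical axis from 50%, 95% Wilson intervals, points labelled with the chromosome), against the median GC content of the 10 kb around its SA sites. Chromosome 4 is lowest at 64.0% and chromosomes 16 and 19 highest at 94.4% and 94.5%.

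Many SA sites without RAD21 were neighbours. Along hg38, 1373 of the 2522 sites (54.4%) stood next to at least 1 other such site, with no SA site with RAD21 between them, and 215 stood in 35 runs of at least 5. The longest runs held 12 sites each. One spanned 3.41 Mb of chromosome 1 (192311278 to 195718045), with a median GC content of 36.4% around the sites. It overlaps 9 protein-coding genes, among them CDC73, a subunit of the PAF1 transcription elongation complex, the regulator of G-protein signalling genes RGS21 and RGS13, and UCHL5, a deubiquitinating enzyme of the proteasome. The other spanned 2.91 Mb of chromosome 21 (15592296 to 18500197) with CXADR, the coxsackievirus and adenovirus receptor, TMPRSS15, the intestinal protease enteropeptidase, and USP25, a deubiquitinating enzyme. In each of the 2 runs 11 of the 12 sites overlapped a RAD21 peak of CHM13 cells. Of all SA sites without RAD21 on hg38, 95.5% overlapped one. RPE-1 cells had 1 RAD21 peak in each whole stretch. A run excludes SA sites with RAD21 by definition, so a low number of RPE-1 RAD21 peaks is largely set by it. No comparison with chance placement was made, and these stretches were named after their values were seen.

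The places relative to genes differed in both directions. SA sites without RAD21 lay within 1 kb of a protein-coding gene start in 0.952% of cases (24 of 2522) and those with RAD21 in 4.67% (430 of 9201), a difference of 3.72 percentage points (3.10 to 4.27; 22 of 23 chromosomes). The median distance to such a start was 63032 bp without and 35843 bp with RAD21. RAD21 peaks without SA lay within 1 kb of a start in 12.6% of cases (727 of 5749) and those with SA in 4.73% (435 of 9190), a difference of -7.91 points (-8.89 to -6.96), lower with SA on 22 of 23 chromosomes. With the SA2 list alone this difference was -4.05 points (-4.87 to -3.21). Their median distances were 24518 and 35842 bp. Within 3 equal classes of GC content, the difference for SA sites was 1.07 points in the lowest (0.426 to 1.74), 2.26 in the middle (0.968 to 3.20) and 2.34 in the highest class, where the interval (-3.24 to 5.19) included 0. With 5 classes the direction turned in the highest, where 14.7% of sites without RAD21 (5 of 34; 6.45 to 30.1%) and 8.0% of those with it (185 of 2313; 6.96 to 9.17%) lay within 1 kb of a start, with intervals that overlapped.

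**Figure D5:**
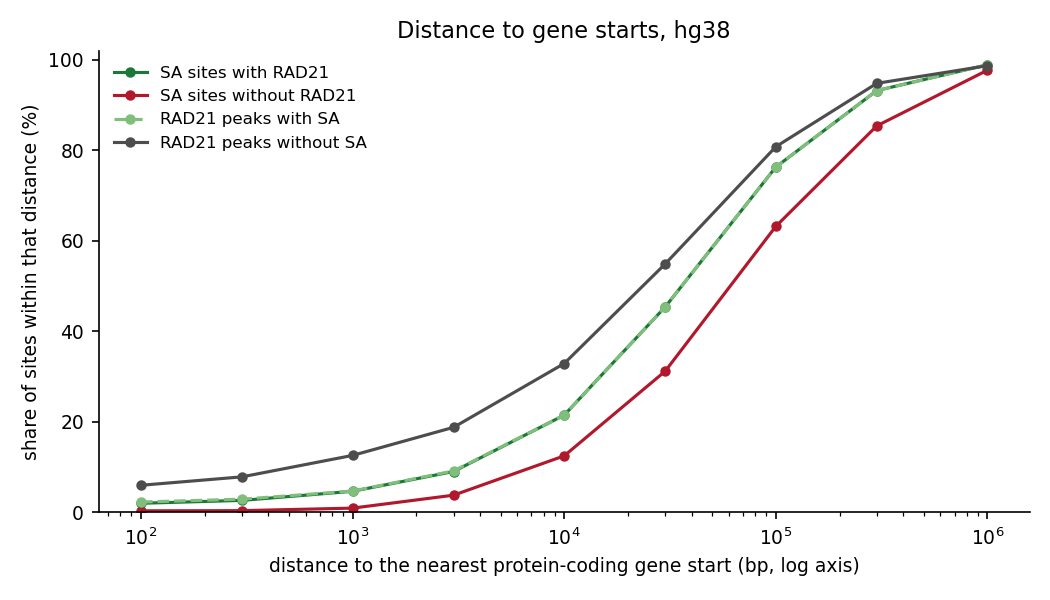
Share of each group of RPE-1 sites that lay within a given distance (log axis, in bp) of the nearest protein-coding gene start on hg38. At 1 kb, the curves stand at 0.952% for SA sites without RAD21 (red), at 4.67% and 4.73% for sites with both kinds of subunit (greens) and at 12.6% for RAD21 peaks without SA (grey).

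SA sites without RAD21 were more often in introns. Their centres lay in an intron of a protein-coding gene in 48.1% of cases (46.2 to 50.1%), compared with 37.8% with RAD21 (36.8 to 38.8%). They lay in an exon in 3.53% and 5.53%, in a gene of another type in 13.8% and 14.3%, and between genes in 33.6% and 37.6%. The shares are of all sites in a group, with those within 1 kb of a start counted apart. No comparison was made within GC classes or with the share of the genome in introns. Of RAD21 peaks without SA, 8.42% lay in exons and 34.5% in introns. The most SA sites without RAD21 in a single gene were 6, in ROBO1 (chromosome 3, 78597239 to 79767998), which encodes an axon guidance receptor and is 1171 kb long. It held 3 sites with RAD21. PDE3A, which encodes a phosphodiesterase of cyclic nucleotides, and DLG2, a synaptic scaffold gene, each held 4 without and 0 with RAD21, over 320 and 2173 kb. PDE4D, another phosphodiesterase gene, held 4 without and 6 with. Such genes were named after the counts were seen, and long genes have room for more sites.

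SA sites without RAD21 covered the start of a protein-coding gene at 8 places, with 8 named genes, or 0.0413% of the 19360 starts examined. SA sites with RAD21 covered 158 starts (0.816%) and RAD21 peaks without SA covered 294 (1.52%). All 8 genes are given, with the width of the site. SLITRK6, a transmembrane protein gene of the nervous system and inner ear, had the widest (474 bp, chromosome 13, 85806474 to 85806947). It was followed by RGS20, another regulator of G-protein signalling (416 bp), LRRC71 (352 bp) and SLC9A4, a sodium-proton exchanger of the stomach (299 bp). Narrower sites lay at TUBA4A, an α-tubulin gene (288 bp), PSKH2 (287 bp), BDH2, a dehydrogenase gene (278 bp), and PDS5B (249 bp). PDS5B encodes a protein that binds cohesin itself and regulates its release and its establishment of cohesion. Each of the 8 sites was called in 1 SA list only: SLITRK6, RGS20, SLC9A4, PSKH2 and BDH2 in that of SA1, and LRRC71, TUBA4A and PDS5B in that of SA2. All 8 overlapped RAD21, SA1 and SA2 peaks of CHM13 cells.

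The 100 bases before the start of 4 of these genes, SLITRK6, LRRC71, SLC9A4 and TUBA4A, are shown to illustrate these places. Capitals mark a CTCF core motif with at most 1 mismatch, on either strand.
SLITRK6, chr13:85806684-85806783, minus strand: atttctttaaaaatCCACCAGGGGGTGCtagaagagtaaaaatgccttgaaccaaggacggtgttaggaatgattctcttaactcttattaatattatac
LRRC71, chr1:156920532-156920631, plus strand: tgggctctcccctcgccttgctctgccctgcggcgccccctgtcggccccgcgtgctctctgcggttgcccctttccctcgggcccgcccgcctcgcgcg
SLC9A4, chr2:102473126-102473225, plus strand: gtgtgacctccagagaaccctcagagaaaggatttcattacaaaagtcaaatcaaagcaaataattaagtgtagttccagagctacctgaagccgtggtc
TUBA4A, chr2:219277903-219278002, minus strand: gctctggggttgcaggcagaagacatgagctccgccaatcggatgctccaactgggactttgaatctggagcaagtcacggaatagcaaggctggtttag

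The bases before LRRC71 held 78.0% GC and 13 CpG dinucleotides, those before SLITRK6 35.0% and 1. The stretch in capitals before SLITRK6 fits the motif at 13 of 14 positions.

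Of the SA sites with RAD21 at gene starts, the widest lay at TENT5A, a nucleotidyltransferase gene (1737 bp, chromosome 6, 81752548 to 81754284), followed by DIP2B (900 bp) and MYOF, which encodes myoferlin, a membrane protein of vesicle fusion and repair (873 bp). CFAP68 (789 bp), AQP6, a water channel gene (776 bp), PCDHGA11 of the clustered protocadherins, which are known for CTCF and cohesin at their promoters (734 bp), TIMM22, of mitochondrial protein import (692 bp), and INSYN2B (642 bp) came next. TENT5A, TIMM22 and INSYN2B were in the SA1 list only, and the other 5 in both. All 8 were in all 3 CHM13 lists, as were 97.5% of all SA sites with RAD21 on hg38. None of the 8 held an exact or 1-mismatch CTCF motif within the central 300 bp, against 55.0% of all SA sites with RAD21 that held one with at most 1 mismatch. Among RAD21 peaks with SA within 1 kb of a protein-coding gene start, 43.4% held one. That window covers only part of sites as wide as these.

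The 6 widest RAD21 peaks without SA at gene starts were at DUSP10, a phosphatase of MAP kinases (2008 bp, chromosome 1, 221741658 to 221743665), GPC6, a cell-surface proteoglycan (1864 bp), CITED2, a transcriptional co-regulator (1800 bp), SH3RF1, a scaffold of JNK signalling (1587 bp), MARCHF1, a membrane ubiquitin ligase (1179 bp), and CDKN2B, an inhibitor of cyclin-dependent kinases (1095 bp). The peaks at DUSP10, CITED2, SH3RF1 and CDKN2B were in all 3 CHM13 lists, that at GPC6 in those of RAD21 and SA2, and that at MARCHF1 in none. Of 22 immediate-early genes, which are induced within minutes of a growth signal, 2 had a RAD21 peak without SA at their start (9.09%, against 1.52% of all starts). These were DUSP1, another MAP kinase phosphatase, and JUN, a subunit of the AP-1 transcription factor.

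Counts for the other gene lists are to be read beside the shares of all starts, 0.816% for SA sites with RAD21, 0.0413% for those without and 1.52% for RAD21 peaks without SA. Of 85 ribosomal protein genes, RPL10A alone had a RAD21 peak without SA at its start, and none had an SA site. Of 508 zinc-finger genes, 4 were covered by SA sites with RAD21 (0.787%; ZNF843, ZNF491, ZNF219 and ZNF329), 4 by RAD21 peaks without SA (ZNF34, ZNF213, ZNF131 and ZNF25) and 0 by SA sites without RAD21. Among 55 translation initiation factor genes, EIF3C had an SA site with RAD21 at its start, an uncertain placement because EIF3CL is a near-identical copy. Among 39 proteasome subunit genes, PSMD3 had one. No start of the 69 replication-dependent histone, 24 extracellular matrix and 400 olfactory receptor genes was covered by any of the 3 groups. The listed genes named here were picked after the counts were seen.

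A further 16 SA sites without RAD21 lay within 1 kb of a start without covering it. The closest was 38 bp from SRP9, which encodes a protein of the signal recognition particle. Others were near ASF1B, a histone chaperone gene (200 bp), KMO, an enzyme gene of tryptophan breakdown (416 bp), and SUOX, the sulfite oxidase gene (657 bp). Of the 24 sites within 1 kb, the one at SRP9 was missing from the SA2 list of CHM13 cells, and the other 23 were in all 3 lists. Their genes were named after the values were seen.

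The CTCF core motif was less frequent in SA sites without a RAD21 peak. It was searched on both strands in the central 300 bp, where 0.0527% of all 300-bp stretches of these chromosomes hold an exact match. An exact match was present in 8.09% of SA sites without RAD21 and 16.8% of those with it, a difference of 8.71 percentage points (7.36 to 9.98; 21 of 23 chromosomes). With 1 mismatch allowed, the shares were 42.8% and 55.0%, against 0.563% of the genome. Both groups were above the genome. Within the 5 GC classes, the 1-mismatch share was 43.1% without and 47.5% with RAD21 in the lowest (difference 4.41 points, 0.371 to 8.43), and 46.7% and 56.9% in the next to highest (10.3 points, 2.37 to 18.0). The highest class had only 34 sites without RAD21, and 0 of them held an exact match, which allows a share of up to 8.82% by the 3-count limit and 10.2% by the Wilson interval.

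In RAD21 peaks with and without SA the exact motif was present in 16.6% and 16.5%, a difference of 0.0739 points whose interval (-1.16 to 1.29) includes 0. With 1 mismatch allowed they held it in 54.5% and 51.8%, a difference of 2.64 points (0.993 to 4.28). RAD21 peaks varied in this respect with their place, both with and without SA. Within 1 kb of a protein-coding gene start, 7.84% of the 727 without SA held an exact match (6.10 to 10.0%). Of the 5022 others without SA 17.8% did (16.8 to 18.9%). With SA the order was the same: 9.89% of the 435 at gene starts held one (7.42 to 13.1%). Farther away 1484 of the 8755 with SA did (interval 16.2 to 17.8%). Among RAD21 peaks without SA at gene starts 73.2% were in all 3 CHM13 lists (69.8 to 76.3%), against 79.8% of those farther away (78.7 to 80.9%).

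Presence in the CHM13 lists was also compared at like GC content. Within 3 equal classes of GC content on hg38, the difference in presence in any CHM13 list between SA sites with and without RAD21 was 0.799 points in the lowest (-0.419 to 2.07) and 0.663 in the middle (-0.142 to 1.93), where the intervals include 0, and 2.81 in the highest (0.740 to 7.77). The difference over all SA sites on hg38 was 2.14 points (1.44 to 2.96).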

How the data were processed

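ChIP-seq libraries of RAD21, SA1 and SA2 were sequenced from RPE-1 and CHM13 cells. The authors mapped reads to CHM13 v1.0 (bwa mem), filtered alignments (samtools) and ran macs on every replicate (q of 0.01). Replicates were then merged (GenomicRanges), and loci seen in fewer than 2 were discarded. The deposited lists give the start and end of each peak in bp on CHM13 v1.0 and hg38, and the alignment to hg38 is not given in the sources used here. Widths, overlaps and CHM13-cell presence were taken from CHM13 v1.0, and gene starts (GENCODE 44, also used for exons), GC content, motifs and sequences from hg38, chromosomes 1 to 22 and X, which leaves out 59 RAD21, 17 SA1 and 27 SA2 peaks of RPE-1 cells. No position was converted between builds. Python 3.11.15 with numpy 2.4.6, pandas 2.3.3 and scipy 1.17.1 was used. Functions were tested on simulated data. Because the lists pool replicates, no p-value was computed.

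The members and gene lists were chosen with earlier results of these data known. Genes named were those with a start covered by the widest sites of each group (up to 12 without RAD21, 8 with RAD21 and 6 RAD21 peaks without SA) and up to 4 per gene list, and others are said to be named after their values were seen. Alternatives concerned the overlap, peak width, build, merging and SA list used, the gene-start set and distance, the motif search, and GC classes.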

Additional observations from a re-analysis of the deposited data

How the results depend on the processing

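Of 114 recomputed values of the 12 results, 97 stayed on the same side of their limit (an interval that excludes 0, or for the 2 shares the interval of the main value), and 0 reversed. The share of SA sites with RAD21 (77.2%) was 78.5% with the hg38 lists, 80.2% with SA peaks taken one by one, 78.7% with the SA1 list alone, 82.0% with the SA2 list alone and, in a setting chosen after seeing the data, 85.6% among sites in both SA lists. The share of RAD21 peaks with SA (62.8%) was 61.7% when at least 50% of the peak had to be covered, 61.5% with the hg38 lists, 53.3% with SA1 alone and 48.8% with SA2 alone. In sites under 300 bp the intervals included 0: the differences were 3.58 points for the CHM13 RAD21 list and 2.97 for any CHM13 list in SA sites, and 5.19 for any CHM13 list in RAD21 peaks. At 700 bp or more the difference for SA sites was 26.6 points (13.6 to 44.7). Of the 329 SA sites of this width, 300 had RAD21, so the difference rests on few sites without it. Within 3 GC classes, chosen after seeing the data, presence in any CHM13 list differed by 0.799 and 0.663 points in the lowest and middle classes, and gene-start proximity by 2.34 points in the highest, with intervals that include 0. The motif difference of RAD21 peaks passed its limit with SA2 alone (1.69 points) and with 1 mismatch (2.64 points), and its sign varied among the other settings. With the SA2 list alone the difference in sites of at least 500 bp was 6.37 points in place of 20.7, and that of RAD21 peaks in gene-start proximity -4.05 points in place of -7.91. The causes of these changes were not tested. No paired analysis was possible because each list pools its replicates, and leaving out a replicate was not possible for the same reason.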
